A study of Mus musculus with 2 samples.

Results

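Genes that are used as markers of pericytes were followed in RNA sequencing of mouse cavernous endothelial cells (MCECs), the 9 symbols Rgs5, Kcnj8, Abcc9, Ndufa4l2, Cspg4, Pdgfrb, Anpep, Mcam and Notch3 among the 23183 listed. They were chosen by name, and were set apart into 4 genes of the KATP channel and Rgs5 group (Rgs5, Kcnj8, Abcc9 and Ndufa4l2) and 5 surface markers (Cspg4, Pdgfrb, Anpep, Mcam and Notch3). The 9 genes were chosen with earlier results of these libraries known. The split was also made with the values of these same libraries known, so the contrast between both groups is a description and was not tested. Each condition had 1 library. In HG+HBS, MCECs were kept in high glucose (HG, 30 mM) with the HEPES-buffered saline vehicle, and in HG+PC-NVs they received pericyte-derived nanovesicles (PC-NVs) at 1 µg/mL in the same high glucose. The MCECs were primary cultures grown out from mouse penis tissue and used at passages 2 to 4. By the study's methods, its C57BL/6J mice were male and 8 weeks old. By the methods, cells spent 72 hours in glucose and the last 24 hours with PC-NVs before RNA was taken, whereas the sample labels state 5 days of glucose. PC-NVs were made by extruding cultured mouse cavernous pericytes through membranes, and RNA of the vesicles or of the pericytes was not analysed here.

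Pericytes wrap the endothelial tube of capillaries and exchange signals with it through PDGF, Notch and direct contacts. They are recognised by surface proteins that bind growth factors, matrix or neighbouring cells, and by a set of intracellular and channel genes that single-cell studies have linked to them. Among the latter, Kcnj8 and Abcc9 encode the pore (Kir6.1) and the sulfonylurea receptor (SUR2) of the vascular ATP-sensitive potassium (KATP) channel, which opens when cellular ATP falls and hyperpolarises the cell. None of these genes is expressed by pericytes alone, and cultured mural cells and fibroblasts share several of the surface markers.

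The files hold log2(normalized FPKM + 1) values, which were converted back to normalized FPKM (fragments per kilobase of transcript, scaled to the size of the library) and summed over the rows of a gene. FPKM is a level per transcript length, so levels of different genes can be set side by side. The log2 ratio given below is that of HG+PC-NVs over HG+HBS after adding 1 to each level, which understates differences of low genes. The fold of FPKM, given where it helps, has nothing added. Where a pair of levels stands without names, the first is that of HG+HBS, and a number in brackets after it is the log2 ratio. Counts of genes past 2-fold use the log2 ratio. Depth was read from the worth of a single fragment in low values, which gives about 13400000 fragments in the HG+HBS library and 11600000 in the other. The 95% Wilson intervals below come from these approximate fragments and cover counting error only. With 1 library per condition, no difference could be set against the spread between cultures.

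All 9 genes passed the filter on low values, a mean log2(level + 1) of at least 1, with Mcam just above it at 1.02. The 4 genes of the KATP channel and Rgs5 group were all higher in HG+PC-NVs, and the 5 surface markers were all lower. Over all 11785 genes that passed the filter, 5707 were higher and 6078 lower. Of the 9 genes, 3 were at least 2-fold higher (Ndufa4l2, Rgs5 and Kcnj8) and 0 at least 2-fold lower, beside 2.38% and 0.798% of the 11785 genes that passed the filter. At 1.5-fold, 3 were higher and 2 lower (Anpep and Cspg4), beside 5.33% and 3.57% of all genes. These are the values by which the groups were told apart, so nothing is read from the counts. The median log2 ratio was 1.43 in the KATP channel and Rgs5 group and -0.25 among the surface markers, a difference of 1.69, while the median of all genes tested was -0.01. The surface median is the ratio of Mcam, from about 47 and 29 fragments. Its counting interval, 0.33 to either side, takes in no difference. The interval of the difference between both medians was 0.38 to either side. It holds only the counting error of the genes in the middle of each group. As the groups were split with these values known, nothing is read from it.

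**Figure D1:**
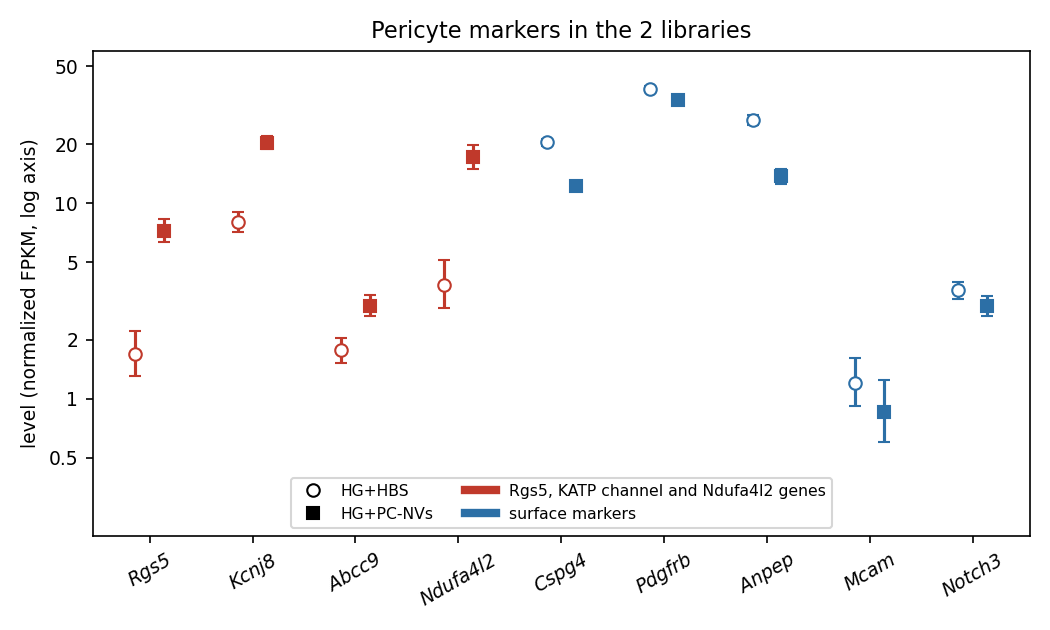
Level of each of the 9 pericyte markers (normalized FPKM, log axis) in the HG+HBS library (open circles) and the HG+PC-NVs library (filled squares), with 95% Wilson intervals for counting error. The 4 red genes were higher in HG+PC-NVs and the 5 blue surface markers were lower, with overlapping intervals for Mcam and Notch3.

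The summed level of the 9 genes hardly differed between the libraries, with 105.5 FPKM with HBS and 111 FPKM with PC-NVs, but its make-up did. The KATP channel and Rgs5 group went from 15.3 to 47.9 FPKM, from 14.5% to 43.0% of the sum. Within it, Ndufa4l2, which is neither a KATP channel nor an RGS gene, went from 3.83 to 17.3 FPKM. Kcnj8 went from 7.98 to 20.4 FPKM, Rgs5 from 1.69 to 7.23 FPKM and Abcc9 from 1.77 to 2.99 FPKM. The surface markers went from 90.3 to 63.4 FPKM, from 85.5% to 57.0%. In bulk RNA of a culture, fewer cells of a type and less RNA per cell cannot be told apart.

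**Figure D2:**
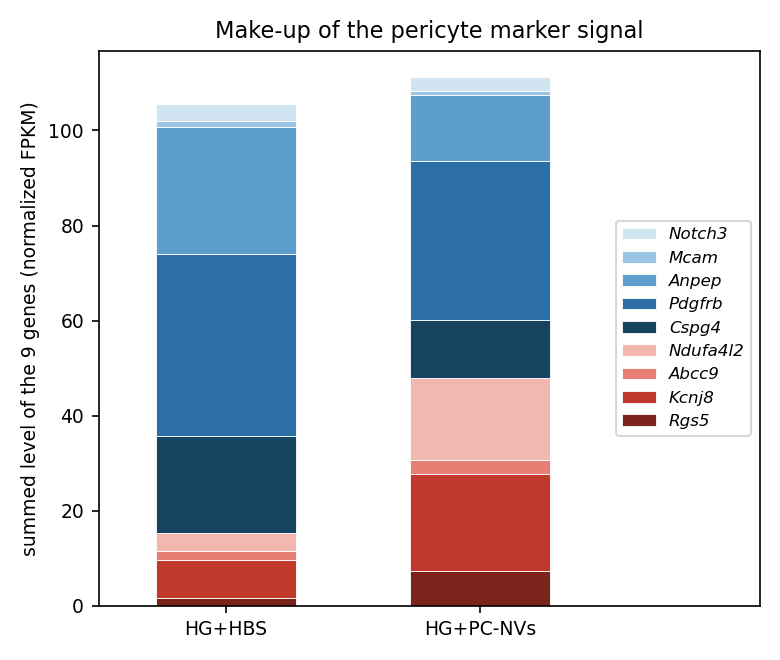
Summed level of the 9 genes (normalized FPKM, linear axis from 0) in each library, stacked by gene. The sum was 105.5 FPKM with HBS and 111 FPKM with PC-NVs, while the share of the 4 red genes was 14.5% and 43.0%.

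Rgs5 encodes a regulator of G-protein signalling that speeds GTP hydrolysis by Gi and Gq subunits, and it is among the most used transcript markers of pericytes. In GRCm38 with GENCODE M21 it spans 169655501 to 169695813 of chromosome 1, forward strand. Its level was 1.69 FPKM with the HBS vehicle and 7.23 FPKM with PC-NVs, a 4.27-fold difference (95% interval 3.15 to 5.71, from about 55 and 203 fragments). The intervals of both levels were far apart. The log2 ratio of Rgs5, 1.61, ranked 110 of the 11785 genes. By its pair of log2 values, the genes nearest to Rgs5 were Slc22a23 (1.83 and 7.46 FPKM), Unc45b (1.49 and 7.15 FPKM) and Rgs7bp (1.74 and 6.60 FPKM), at distances of 0.08, 0.12 and 0.12 on the log2 scale. This likeness rests on 2 libraries.

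Kcnj8, the pore subunit gene, had the highest level of the 4 genes in both libraries, with overlapping intervals for Ndufa4l2 in HG+PC-NVs. Its level was 7.98 FPKM with HBS and 20.4 FPKM with PC-NVs, a 2.56-fold difference (95% interval 2.21 to 2.94, from about 272 and 604 fragments) and a log2 ratio of 1.25. Abcc9, the regulatory subunit gene of the same channel, was lower in level and in ratio. It had 1.77 FPKM with HBS and 2.99 FPKM with PC-NVs, a 1.69-fold difference (95% interval 1.39 to 2.05, from about 174 and 256 fragments) and a log2 ratio of 0.53, within 2-fold. Of the 5 rows of Abcc9, 3 were listed at 0 in both libraries and a single row held nearly the whole level (99.99% for HG+HBS). The Kcnj8 level was 4.51 times that of Abcc9 with HBS and 6.83 times with PC-NVs. These are RNA levels. The assembled channel holds pore and receptor proteins in equal number, and the proteins were not measured here.

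Kcnj8 and Abcc9 are neighbours on chromosome 6 (GRCm38, reverse strand), at 142564837 to 142571614 and 142587862 to 142702315, with 16.2 kb between them. The genes around them that passed the filter were within 1.5-fold. Ldhb, which encodes a lactate dehydrogenase subunit and lies next to Kcnj8, had 52.4 and 49.3 FPKM (log2 ratio -0.09). Cmas, which encodes an enzyme of sialic acid activation and lies on the far side of Abcc9, had 23.8 and 29.3 FPKM (0.29). Recql, a DNA helicase gene, had a log2 ratio of 0.14, and Golt1b, a gene of vesicle transport, had 0.30. Gys2 and the antisense gene 5330439B14Rik, which lies within Abcc9, were listed at 0 in both libraries.

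**Figure D3:**
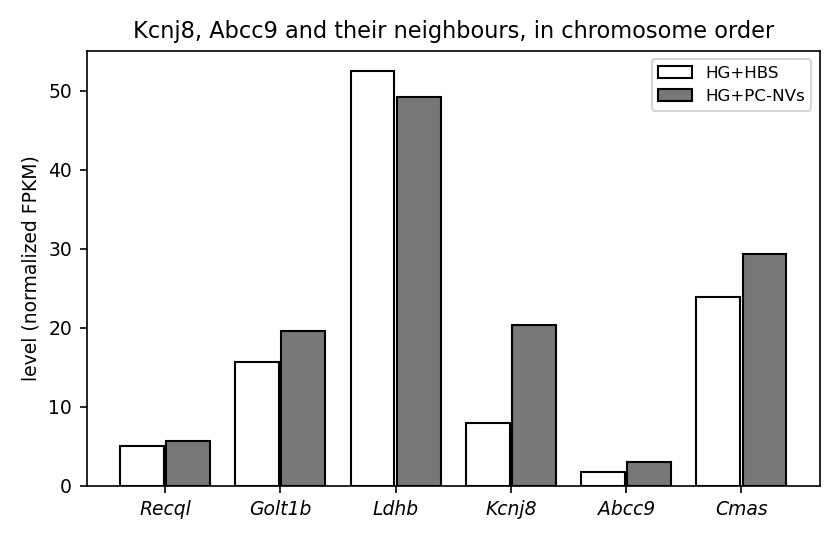
Level (normalized FPKM, linear axis from 0) of Kcnj8, Abcc9 and the neighbouring genes that passed the filter, in chromosome order, with an open bar for HG+HBS and a grey bar for HG+PC-NVs. Kcnj8 went from 7.98 to 20.4 FPKM, while Ldhb on one side had 52.4 and 49.3 FPKM and Cmas on the other had 23.8 and 29.3 FPKM.

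The bases upstream of 3 of the 4 higher genes are shown, since Kcnj8 and Abcc9 share a locus but not a start site, together with those of Anpep, the surface marker with the lowest ratio. Each is the stretch of 250 bases before the RefSeq start, read 5′ to 3′ along the gene in GRCm38.p6. The RefSeq start used for Anpep lies inside the GENCODE M21 span of the gene (79821803 to 79861059), and so does its window. Capitals mark matches on either strand to the core of the hypoxia response element (ACGTG or GCGTG), to the core of the binding site of RBPJ, the DNA-binding partner of Notch (TGGGAA), or to the CArG box, the site of serum response factor.
Rgs5 (chr1:169655251-169655500, forward strand): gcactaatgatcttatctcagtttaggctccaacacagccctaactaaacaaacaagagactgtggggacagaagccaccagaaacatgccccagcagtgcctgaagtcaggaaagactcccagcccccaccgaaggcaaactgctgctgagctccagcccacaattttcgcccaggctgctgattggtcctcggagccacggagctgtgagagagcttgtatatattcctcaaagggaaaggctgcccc
Kcnj8 (chr6:142571615-142571864, reverse strand): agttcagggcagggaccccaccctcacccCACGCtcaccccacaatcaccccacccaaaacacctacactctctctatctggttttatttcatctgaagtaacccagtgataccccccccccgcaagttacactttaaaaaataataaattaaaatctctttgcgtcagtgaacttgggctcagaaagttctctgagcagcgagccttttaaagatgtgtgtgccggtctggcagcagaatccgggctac
Abcc9 (chr6:142702275-142702524, reverse strand): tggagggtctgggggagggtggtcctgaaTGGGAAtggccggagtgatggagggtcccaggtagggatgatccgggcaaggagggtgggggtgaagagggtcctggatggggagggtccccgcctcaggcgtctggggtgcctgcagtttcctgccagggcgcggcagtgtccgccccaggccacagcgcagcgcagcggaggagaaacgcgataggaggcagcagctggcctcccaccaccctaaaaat
Anpep (chr7:79848211-79848460, reverse strand): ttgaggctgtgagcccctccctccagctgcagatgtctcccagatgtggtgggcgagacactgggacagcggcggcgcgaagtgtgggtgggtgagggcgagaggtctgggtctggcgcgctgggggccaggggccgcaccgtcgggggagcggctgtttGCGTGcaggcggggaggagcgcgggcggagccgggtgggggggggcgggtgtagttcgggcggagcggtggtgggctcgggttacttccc

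Rgs5 held none of the 4 motifs in this window. Kcnj8 held GCGTG on the opposite strand, 221 to 217 bases before the start, and Anpep held it on its own strand, 90 to 86 bases before the start. Abcc9 held TGGGAA, 221 to 216 bases before the start. Notch3, whose window is not shown, held both ACGTG (186 to 182 bases before the start) and GCGTG (181 to 177) on the opposite strand, and Cspg4 and Mcam held none of the 4 motifs. Among all 32851 RefSeq windows of this length, 28.2% held GCGTG, 16.6% ACGTG, 21.6% TGGGAA and 1.47% a CArG box, so these matches are common by themselves. Windows were read for 7 of the 9 genes, since none was available for Ndufa4l2 and Pdgfrb was left out of the search. The GC content of these stretches was 53.6% in Rgs5, 49.2% in Kcnj8 and 66.8% in Abcc9, and 60.4% in Cspg4, 68.8% in Notch3, 72.8% in Anpep and 73.6% in Mcam, against a median of 52.4% over all windows.

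Ndufa4l2 encodes a paralog of the respiratory chain protein NDUFA4 that is known to be induced under low oxygen. It lies on the forward strand of chromosome 10, from 127514967 to 127517154. Its level was 3.83 FPKM with HBS and 17.3 FPKM with PC-NVs, a 4.50-fold difference (95% interval 3.26 to 6.14, from about 48 and 187 fragments). Its log2 ratio of 1.92 was the highest of the 9 genes and ranked 81 among all genes tested. The gene overlaps Shmt2 on the opposite strand. The study's methods name a stranded library kit, but the sources used here do not say whether reads were counted by strand. Shmt2, an enzyme gene of mitochondrial folate metabolism, had 28.6 FPKM with HBS and 27.5 FPKM with PC-NVs.

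Cspg4 encodes NG2, the chondroitin sulfate proteoglycan by which the study stained pericytes in tissue. Its level was 20.4 FPKM with HBS and 12.2 FPKM with PC-NVs, 1.68-fold lower with PC-NVs (95% interval 1.56 to 1.80, from about 2218 and 1149 fragments), with a log2 ratio of -0.70. Anpep encodes the membrane peptidase CD13. It had 26.7 FPKM with HBS and 13.7 FPKM with PC-NVs, 1.95-fold lower (95% interval 1.76 to 2.15), and its log2 ratio of -0.91 was the lowest of the 9 genes, rank 127 from the bottom of all genes tested. The intervals of both levels were far apart for Cspg4 and for Anpep.

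Pdgfrb encodes the receptor through which endothelial PDGF-B recruits pericytes, and it had the highest level of the 9 genes in both libraries. It had 38.4 FPKM with HBS and 33.7 FPKM with PC-NVs, 1.14-fold lower (95% interval 1.08 to 1.21) with a log2 ratio of -0.18. Most of the difference lay in the smaller of its 2 rows, which went from 12.7 to 8.38 FPKM, while the larger stood at 25.7 and 25.3 FPKM. The files do not name the transcript of a row.

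Notch3 encodes the Notch receptor of mural cells. It had 3.59 FPKM with HBS and 2.98 FPKM with PC-NVs, 1.20-fold lower (95% interval 1.03 to 1.41) with a log2 ratio of -0.20. Mcam, which encodes the adhesion molecule CD146 of endothelial and mural cells, had 1.21 FPKM with HBS and 0.855 FPKM with PC-NVs, from about 47 and 29 fragments. Its 1.42-fold difference had an interval from 0.892 to 2.23 that takes in no difference, so none was detectable at this depth. Antisense genes overlap Mcam and Notch3 on the opposite strand, and an unclassified gene overlaps Anpep on its own, and these were not analysed here.

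In HG+HBS, the order of the levels was Pdgfrb, Anpep, Cspg4, Kcnj8, Ndufa4l2, Notch3, Abcc9, Rgs5 and Mcam. Ndufa4l2 and Notch3, Abcc9 and Rgs5, and Rgs5 and Mcam did not differ beyond their counting intervals. In HG+PC-NVs, the order was Pdgfrb, Kcnj8, Ndufa4l2, Anpep, Cspg4, Rgs5, Abcc9, Notch3 and Mcam. There Kcnj8 and Ndufa4l2, Anpep and Cspg4, and Abcc9 and Notch3 did not differ beyond their intervals. Kcnj8 thus stood at rank 4 without and at rank 2 with PC-NVs, and Anpep at rank 2 and rank 4.

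**Figure D4:**
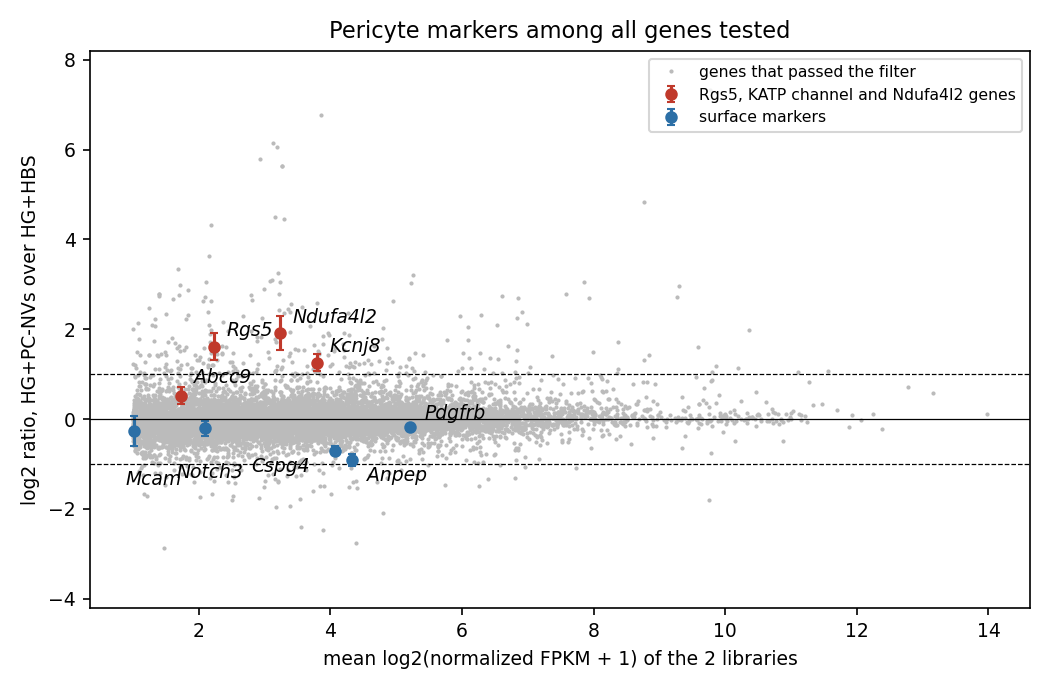
Log2 ratio of HG+PC-NVs over HG+HBS against the mean log2(normalized FPKM + 1) of both libraries for the 11785 genes that passed the filter (grey), with the 9 pericyte markers in colour. Bars are 95% intervals for counting error and dashed lines mark 2-fold. Ndufa4l2 (1.92), Rgs5 (1.61) and Kcnj8 (1.25) lie above the upper line, and Anpep (-0.91) lies just inside the lower one.

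Relatives of the 4 higher genes were read from lists of their families. The lists include those genes themselves, so their counts and medians partly reuse the values by which the groups were told apart. Counts past 2-fold in this and the following lists stand beside 2.38% higher and 0.798% lower of all genes tested. Among 10 subunit genes of KATP and related inward rectifier channels, 4 passed the filter, 1 of them at least 2-fold higher (Kcnj8 itself) and 0 lower, with a median log2 ratio of 0.60. Kcnj11, the pore gene of the pancreatic type of KATP channel, was listed at 0 in both libraries, and its partner Abcc8 was at or below the floor of 3 fragments in both. Kcnj2, a strong inward rectifier, had 12.0 and 13.6 FPKM (0.16). Kcnj15, a further inward rectifier, had 3.30 and 5.84 FPKM (0.67). Kcnj8 and Abcc9 were therefore the only KATP subunit genes of the 4 above that floor.

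Among 9 genes of the R4 family of RGS proteins, to which Rgs5 belongs, 4 passed the filter, 2 of them at least 2-fold higher (Rgs5 and Rgs16) and 0 lower, with a median log2 ratio of 1.07. Rgs16 had 13.8 FPKM with HBS and 34.4 FPKM with PC-NVs, a log2 ratio of 1.26. Rgs2, the highest of the family in level, had 31.2 and 58.1 FPKM (0.88), and Rgs3 had 4.55 and 4.06 FPKM (-0.13). The other 5 genes did not pass the filter. Of these Rgs1 had 0.902 and 0.563 FPKM, Rgs4 was below the floor with HBS and had 0.406 FPKM with PC-NVs, Rgs8 and Rgs18 were under 1 FPKM in both libraries, and Rgs13 was listed at 0 in both.

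Ndufa4, the constitutive paralog of Ndufa4l2, had 268 FPKM with HBS and 291 FPKM with PC-NVs (log2 ratio 0.12), which was 69.9 times the level of Ndufa4l2 in the former and 16.9 times in the latter. AA467197, a further relative, had 12.2 and 19.1 FPKM (0.61). Of the 15 genes of this family and of the hypoxia-inducible factor pathway, 14 passed the filter, 5 of them at least 2-fold higher and 0 lower, with a median log2 ratio of 0.92. Beside Ndufa4l2 the 5 were Vegfa (1.13), Hif1a (1.07), Ankrd37 (1.06) and Bnip3 (1.02). Of the 14 genes 13 were higher and 1 lower, Epas1 (-0.31), beside 5707 higher and 6078 lower of all 11785 genes tested. Adm differed little, with 33.6 and 34.9 FPKM (0.05), and Slc2a1 had a log2 ratio of 0.59. Vegfa encodes the main endothelial growth factor, Hif1a the oxygen-regulated factor itself, and Ankrd37 and Bnip3 are known targets of it. Their part in the level of Ndufa4l2 was not tested.

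Partners of the surface markers were read in the same way, from lists that include Pdgfrb and Notch3 themselves. Of the 6 genes of the PDGF pathway all 6 passed the filter, 0 were past 2-fold in either direction, and the median log2 ratio was -0.20. Pdgfra, the receptor of fibroblasts and other mesenchymal cells, had 149 and 129 FPKM, 3.89 and 3.82 times the level of Pdgfrb. Of the ligand genes, Pdgfb had 1.61 and 0.955 FPKM (-0.42), Pdgfd 23.2 and 14.8 FPKM (-0.62), Pdgfa 13.5 FPKM with PC-NVs (0.39) and Pdgfc 2.85 and 2.88 FPKM (0.01). In the Notch pathway 7 of 14 genes passed the filter, again with 0 past 2-fold in either direction and a median of -0.09. The receptor genes Notch1 (-0.45) and Notch2 (0.44) lay on either side of 0, Notch4 was under 1 FPKM in both libraries, and Rbpj had 80.6 and 85.4 FPKM.

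Of 18 further pericyte markers, 9 passed the filter, 0 of them past 2-fold in either direction, with a median log2 ratio of -0.12. The highest in level was Cd248, which encodes endosialin, with 107 FPKM with HBS and 62.1 FPKM with PC-NVs (-0.78). Named after their values were seen, the extremes were Ednra, the endothelin A receptor gene, with 15.1 and 7.26 FPKM (-0.96), and Enpep, which encodes aminopeptidase A, with 15.1 and 24.6 FPKM (0.67). Higd1b and Heyl were listed at 0 in both libraries, and Vtn was below the floor of 3 fragments in HG+HBS and listed at 0 in HG+PC-NVs. Of the 9 genes that passed the filter, 2 were higher and 7 lower, beside 5707 higher and 6078 lower of all 11785 genes tested. Of those that did not pass, Cox4i2 had the highest level, with 0.645 and 1.37 FPKM. With 2.38% of all genes tested at least 2-fold higher and 0.798% lower, a count of 0 among 9 genes is near the background.

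**Figure D5:**
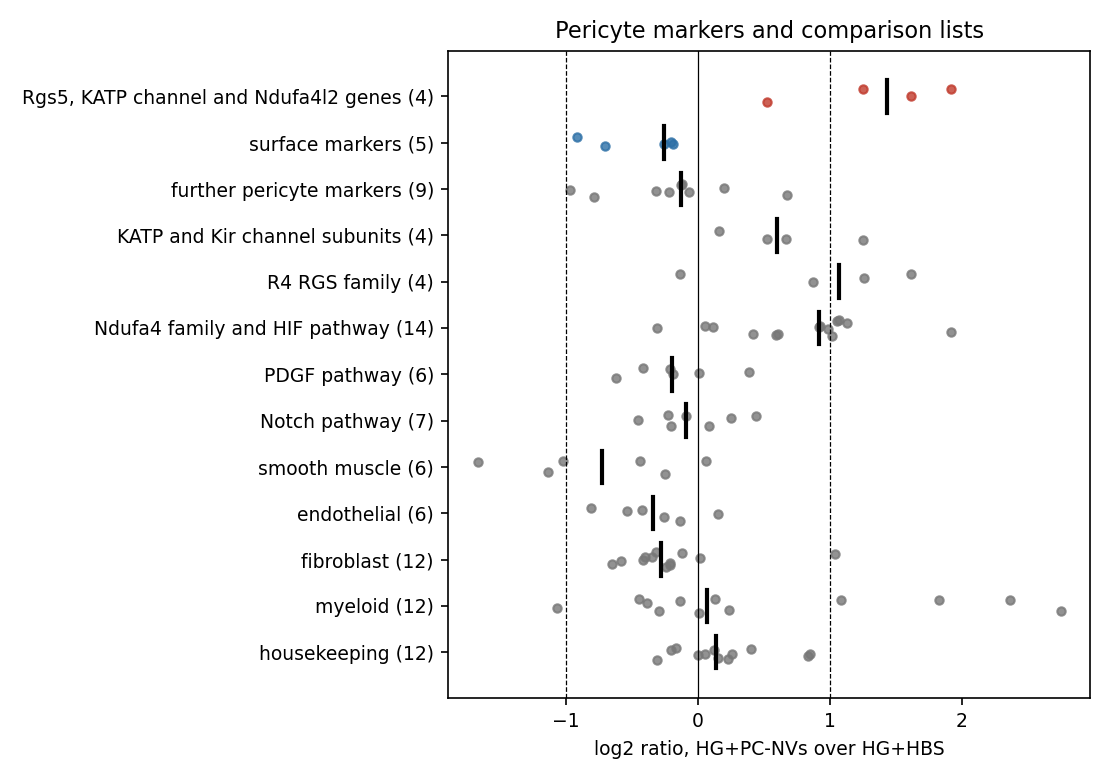
Log2 ratio of HG+PC-NVs over HG+HBS for the genes of each list that passed the filter (number in brackets), with a black bar at the median and dashed lines at 2-fold. The median was 1.43 for the 4 red genes, -0.25 for the 5 blue surface markers, -0.12 for further pericyte markers and -0.73 for smooth muscle genes.

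The cultures are labelled as endothelial cells, and the defining markers of that type were low. Pecam1 (CD31) had 1.05 and 0.938 FPKM, Kdr (VEGF receptor 2) 0.518 and 0.438 FPKM, Vwf 0.158 and 0.128 FPKM, and Nos3 (endothelial nitric oxide synthase) 0.191 and 0.0199 FPKM, the latter below the floor of 3 fragments. Cdh5 (VE-cadherin) stood higher, at 5.05 and 5.73 FPKM. Of 18 endothelial genes 11 were under 1 FPKM in both libraries, 6 passed the filter with 0 past 2-fold, and the highest was Eng, with 29.0 and 21.4 FPKM. The 9 pericyte markers were therefore measured in cultures in which Pdgfrb exceeded Pecam1 in level.

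Markers of other cell types stood beside them. Their counts past 2-fold are again set beside 2.38% higher and 0.798% lower of all genes tested. All 12 fibroblast genes passed the filter, with a summed level of 2469 FPKM with HBS and 2720 FPKM with PC-NVs, a median log2 ratio of -0.28, and 1 gene past 2-fold, Dcn (decorin), with 623 and 1283 FPKM. Of 12 smooth muscle genes 6 passed the filter, 3 of them at least 2-fold lower and 0 higher, with a median of -0.73. They were Acta2 (smooth muscle actin, 27.6 and 8.02 FPKM), Tagln (17.3 and 7.34 FPKM) and Mylk (2.21 and 0.582 FPKM), whereas Cald1, the highest in level, had 164 and 171 FPKM, and the summed level of the list went from 317 to 266 FPKM. All 12 myeloid genes passed the filter, with a summed level of 390 and 634 FPKM and a median of 0.07. Of these 4 were at least 2-fold higher, Cd14 (2.75), Adgre1 (2.37), Aif1 (1.82) and Fcer1g (1.09), and 1 was lower, Mrc1 (-1.07), while Lyz2, a lysozyme gene of macrophages, had 212 and 193 FPKM. The 12 housekeeping genes had a median of 0.14 with 0 past 2-fold, and the highest was B2m, with 1847 and 3300.2 FPKM. The part of these cell types in the values of the 9 pericyte markers was not tested.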

How the data were processed

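RNA of 2 cultures was compared, 1 library each for HG+HBS and HG+PC-NVs. According to the study's methods, the reads were trimmed, aligned with TopHat and quantified as FPKM with Cufflinks, and the authors normalized the FPKM with edgeR, with quantile normalization named as well. The submitters' processing notes name the genome build mm10, and tool versions and the annotation are not given in the sources used here. What the authors deposited is 33299 transcript rows of log2(normalized FPKM + 1). Their range, with a maximum of 13.99, was taken as the sign of a log2 scale.

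For each of the 23183 gene symbols, 2^value - 1 was summed over its rows in each library, and 1 was added before the ratio was taken on the log2 scale. The sums of these levels were 521666 for HG+HBS, against 580717 for HG+PC-NVs, which quantile normalization across these libraries would have made equal, and no further scaling was applied. Genes with a mean log2(level + 1) of at least 1 were kept, 11785 in all, and a difference of at least 2-fold was counted. With 1 library per condition no test was made. Fragments were estimated from the most frequent low value of FPKM times transcript length in 2264 genes with a single transcript longer than 1500 nt (GENCODE M21, GRCm38). The Wilson intervals (95%) rest on these estimates and cover counting error only. The calculations were tested on simulated data. The 9 genes, the comparison lists and the rule for the named genes were chosen with earlier results of these data known. By that rule the text names the 9 genes, their family members and chromosomal neighbours, the 3 genes nearest to Rgs5, the main endothelial markers and, in each list, the gene of highest level and those past 2-fold. Some further genes, such as Epas1, Adm, Slc2a1, Ramp2, Prkaca and S1pr3, are named outside this rule, with their values known. Alternatives were another normalization (quantile normalization of the deposited values among them), pseudocount and choice of rows, the filter, the fold threshold and a correction for GC content and length, for which 98.5% of the symbols had values. Promoter sequences are from RefSeq (GRCm38.p6). Python 3.11.15, numpy 2.4.6, pandas 2.3.3 and matplotlib 3.10.9 were used.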

Additional observations from a re-analysis of the deposited data

How the results depend on the processing

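All 9 genes kept their direction under the 6 alternatives tried for each (quantile normalization between the libraries, upper-quartile scaling, median centring, a pseudocount of 0.1, the highest row of each symbol, and centring by GC content and length). Of 193 alternative values, 165 moved by less than the counting error, or for counts by less than 1.5 times, and 28 moved by more. With a pseudocount of 0.1 the log2 ratio was 2.03 for Rgs5 and 0.72 for Abcc9, the median of the KATP channel and Rgs5 group 1.69, the difference of both medians 2.15, the median of the channel list 0.76, and 190 genes were at least 2-fold lower. With the highest row alone, the log2 ratio of Pdgfrb was -0.021, and the medians were 0.35 for the channel list and -0.10 for the PDGF list. Quantile normalization gave medians of -0.25 for the PDGF list and 0.044 for housekeeping genes, and centring by GC content and length gave -0.58 for Cspg4. Over genes with a mean log2 of at least 3, which kept 2 of the 4 higher genes and 3 of the 5 surface markers, the median of the surface markers was -0.70, the difference of both medians 2.29, and the medians -0.45 for further pericyte markers and -0.44 for smooth muscle genes, with 160 genes at least 2-fold higher and 49 lower. Over all genes above 0 in at least 1 library, the medians were 0.12 for the channel list, 0.26 for the RGS list, -0.34 for smooth muscle and -0.10 for endothelial genes. At a fold of 1.5, 2 of the 9 genes were lower, and 628 genes were higher and 421 lower. At a fold of 4, 0 of the 9 were higher, and 75 genes were higher and 7 lower. The changes with the filter and the threshold follow from the genes they admit, and the cause of the others was not tested. No paired analysis was possible because each condition has 1 library, and for the same reason no replicate could be left out. Counting error on the log2 ratio was largest for Ndufa4l2 (SE 0.19) and Mcam (SE 0.17) among the 9 genes.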

Other observations

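Lists of genes that act with the 9 markers were added after their values had been seen. The shares over all genes tested, 2.38% at least 2-fold higher and 0.798% lower, stand beside the counts of these lists too. Among 12 genes of G protein alpha subunits, of which the Gi and Gq types are substrates of Rgs5 and its relatives, 9 passed the filter and 0 were past 2-fold in either direction, with a median log2 ratio of -0.02. Gnai2 had 244 FPKM with HBS and 211 FPKM with PC-NVs, Gnaq had 19.4 FPKM in both, and Gnas, which encodes a subunit of the Gs type and was the highest, had 885 and 871 FPKM. Among 17 genes of receptors and kinases known to act on vascular KATP channels through cyclic AMP, 13 passed the filter, 1 of them at least 2-fold higher and 0 lower, with a median of -0.11. The higher one was Calcrl, the receptor subunit for CGRP and adrenomedullin, with 1.95 and 5.56 FPKM (1.15). Of its partners in this list, Ramp2 had 15.2 and 7.83 FPKM (-0.88), Ramp3 had 9.44 and 8.97 FPKM (-0.07), and Ramp1 did not pass the filter. Prkaca, a catalytic subunit of protein kinase A, had 75.6 and 68.5 FPKM.

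Among 17 genes of signalling and contact between pericytes and endothelium, 15 passed the filter and 0 were past 2-fold in either direction, with a median of -0.004. Gja1, a gap junction gene, had 252 and 251 FPKM, Cdh2 (N-cadherin) had 12.0 and 11.4 FPKM, and S1pr3, a sphingosine phosphate receptor gene, had 15.1 and 7.37 FPKM (-0.95).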
